A study of Mus musculus with 16 samples.

Results

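Hspa5, Xbp1, Herpud1, Atf4, Ddit3, Trib3, Asns, Chac1 and Sesn2 are marker genes of the unfolded protein response and the integrated stress response. They were taken by symbol from the table of gene counts, which makes 9 of 57186 genes. The symbols match 10 rows, because Ddit3 is listed under a pair of identifiers. The second Ddit3 row held 9 counts over all libraries, at most 1 in any of them, and was left aside. All 9 genes passed the filter of at least 100 counts over the 16 libraries, which kept 25408 genes.

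Misfolded protein in the endoplasmic reticulum (ER) is sensed by IRE1, ATF6 and PERK. IRE1 splices Xbp1 mRNA, and the spliced form and cleaved ATF6 raise chaperones such as Hspa5. PERK, like the other kinases that phosphorylate eIF2, slows translation in general while favouring that of ATF4, whose targets supply amino acids, restrain ATF4 itself or promote cell death when the stress lasts. In the kidney these pathways have been studied in tubule cells and podocytes under diabetes.

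Kidney RNA came from 16 male C57BL/6J mice, 16 weeks old, all homozygous for the hypermorphic Elmo1 allele (Elmo1H/H), which raises expression of Elmo1 and which the non-diabetic groups carry too. Diabetic mice were Ins2Akita/+, a mutant of a pancreatic insulin gene that makes beta cells fail, so diabetes arises outside the kidney. The groups, with 4 libraries each, were labelled non-diabetic control (ND_C), non-diabetic given B12 (ND_B12), diabetic control (D_C) and diabetic given B12 (D_B12). B12 was given in the drinking water at 10 mg/kg per day from 8 weeks of age, for 8 weeks by the methods and 16 weeks by the labels, and kidneys were taken at ZT 7 to 9 after a fast of 3 to 4 hours.

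Total counts ran from 65271308 to 91771136 per library, and 9 of 9 tubule and glomerulus markers were detected, with Slc34a1 the most abundant. The labels could not be reconciled with the group means in the study's supplementary table. Those means matched sets of libraries in which 5 of 16 had their labelled group and 14 of 16 their labelled genotype. The exceptions in genotype were the libraries labelled D_C 1 and ND_B12 4. The libraries labelled D_B12 matched the column of diabetic controls, and D_C 2, D_C 3 and D_C 4 that of diabetic mice given B12. The library labelled ND_B12 1 matched the column of non-diabetic controls, and ND_C 3 that of non-diabetic mice given B12. Groups below follow the labels, so which kidneys were untreated, in each comparison, and the direction of B12 are those of the labels. Results are also given without the libraries labelled D_C 1 and ND_B12 4, which leaves the conflicts in treatment in place. The label dates and the groups ran in the same order over 10 dates, and only 2 dates held libraries of more than 1 group, so date and group cannot be told apart. Each library is labelled a biological replicate of its group, and p-values measure the spread between these libraries. In whole kidney, fewer cells of a type and less RNA per cell cannot be told apart.

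The sequences by which the ER pathway reads these genes are shown first. For Xbp1, the annotation holds both the unspliced transcript (Xbp1-201) and one that lacks 26 bases of its exon 4 (Xbp1-205), the product of IRE1. By the annotation, the missing bases lie at chr11:5474278-5474303 (GRCm39, plus strand), inside coding sequence. They are in capitals in the first line, and the second line shows the joined exons. The same short run of letters opens these bases and follows them, so the joined sequence alone does not fix where the cuts fell. The capitals mark the gap in the annotation, and the cuts of IRE1 may lie a few bases away.
Xbp1-201, unspliced: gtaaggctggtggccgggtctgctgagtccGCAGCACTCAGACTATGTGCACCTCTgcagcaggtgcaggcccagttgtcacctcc
Xbp1-205, spliced: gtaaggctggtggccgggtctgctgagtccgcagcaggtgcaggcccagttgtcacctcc

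Promoters of all 9 genes were found in RefSeq (GRCm38.p6, 250 bases before the start and 50 after), and were searched on both strands. The ER stress response element (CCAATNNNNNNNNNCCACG), bound by ATF6 with NF-Y, was present in Hspa5 alone among the 9 and in 0.119% of all 32851 promoters. Its short box CCACG, which is part of that element, was present in 6 of the 9 and in 32.8% of all promoters. The unfolded protein response element (TGACGTGG) was in 0 of the 9 windows and in 0.676% of all. The CEBP-ATF composite element (TGATGNAA), through which ATF4 acts on amino acid genes, was present in 4 of the 9, Herpud1, Trib3, Asns and Chac1, and in 3.97% of all. The related ER stress response element II (ATTGGNCCACG), a search added after the sequences were seen, was present in Herpud1 and in 0.0365% of all. These are matches of letters, not measured binding.

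The windows that hold an ER stress response element or an upstream composite element are shown on the strand of the gene, with the match in capitals. They are Hspa5 at chr2:34772000-34772068 (plus strand), Herpud1 at chr8:94386292-94386412 (plus), Asns at chr6:7693210-7693257 (minus) and Chac1 at chr2:119351024-119351081 (plus), all GRCm38.p6. In Herpud1 the first match is the composite element and the second the ER stress response element II. The composite element of Herpud1 and Chac1 matched on the strand opposite to the gene, so its reverse complement is seen. The Trib3 match lies after the start and is not shown.
Hspa5: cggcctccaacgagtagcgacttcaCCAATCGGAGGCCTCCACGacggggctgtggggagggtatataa
Herpud1: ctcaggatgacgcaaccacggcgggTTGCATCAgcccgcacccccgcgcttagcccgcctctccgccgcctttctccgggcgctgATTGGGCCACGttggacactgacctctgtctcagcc
Asns: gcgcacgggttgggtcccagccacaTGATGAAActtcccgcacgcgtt
Chac1: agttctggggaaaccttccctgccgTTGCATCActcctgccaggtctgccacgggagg

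The ER genes Herpud1, Hspa5 and Xbp1 were expressed at far higher levels than Ddit3, Asns, Chac1 and Trib3. Per kilobase of annotated exon, Herpud1 stood at 87.3 ± 15.1 CPM (counts scaled to the same library total, mean ± SD over 16 libraries) and Hspa5 at 84.1 ± 11.3, and their ranges overlapped. Xbp1 followed at 34.0 ± 5.63 CPM per kilobase, Atf4 at 20.5 ± 4.62 and Sesn2 at 19.5 ± 4.60. The ranges of Atf4 and Sesn2 overlapped, and the highest Atf4 value, 29.3, exceeded the lowest Xbp1 value, 24.7. Ddit3 stood at 3.38 ± 0.863 CPM per kilobase, below every Sesn2 value. Asns, at 0.675 ± 0.125, Chac1, at 0.535 ± 0.162, and Trib3, at 0.492 ± 0.234, formed the low end with overlapping ranges. Spread within groups was smallest for Hspa5 and largest for Trib3, with a pooled SD on the log2 scale of 0.18 and 0.52. The lowest raw counts were 42 for Trib3 and 32 for Chac1 against 25500 for Hspa5.

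Neither diabetes nor B12 moved the 9 genes past the test under the labelled groups. In edgeR 0 of 9 members had an adjusted p-value below 0.05 in diabetic against non-diabetic untreated kidneys (D_C minus ND_C), where 1.66% of all 25408 genes did. The count was also 0 of 9 under B12 (D_B12 minus ND_B12), against 0.823% of all genes. For B12 in non-diabetic kidneys (ND_B12 minus ND_C) and in diabetic kidneys (D_B12 minus D_C), 0 of 9 members and 0% of all genes passed. For the average effect of diabetes 0 of 9 passed against 3.02% of all genes, and for the interaction and the average effect of B12 0 of 9 and 0%. At an unadjusted p-value below 0.05 the counts of members were 0 for D_C minus ND_C, 3 for D_B12 minus ND_B12, 0 for ND_B12 minus ND_C, 0 for D_B12 minus D_C, 1 for the interaction, 3 for the average effect of diabetes and 0 for the average effect of B12. The shares of all genes at that threshold were 18.6%, 17%, 7.62%, 13.6%, 16.1%, 19.4% and 5.2%. With the libraries labelled D_C 1 and ND_B12 4 left out, the counts after adjustment were again 0 of 9 in these 7 comparisons, while 8.57%, 2.8%, 0%, 0.87%, 0.35%, 10.2% and 0% of all genes passed, in the same order. DESeq2 called 1 member in 1 comparison, Xbp1 in D_B12 minus ND_B12, where it called 4.51% of all genes. In the order above, its shares of all genes in the other 6 comparisons, with 0 of 9 members, were 6.31%, 0.0236%, 2.68%, 3.63%, 7.21% and 0.0236%.

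**Figure D1:**
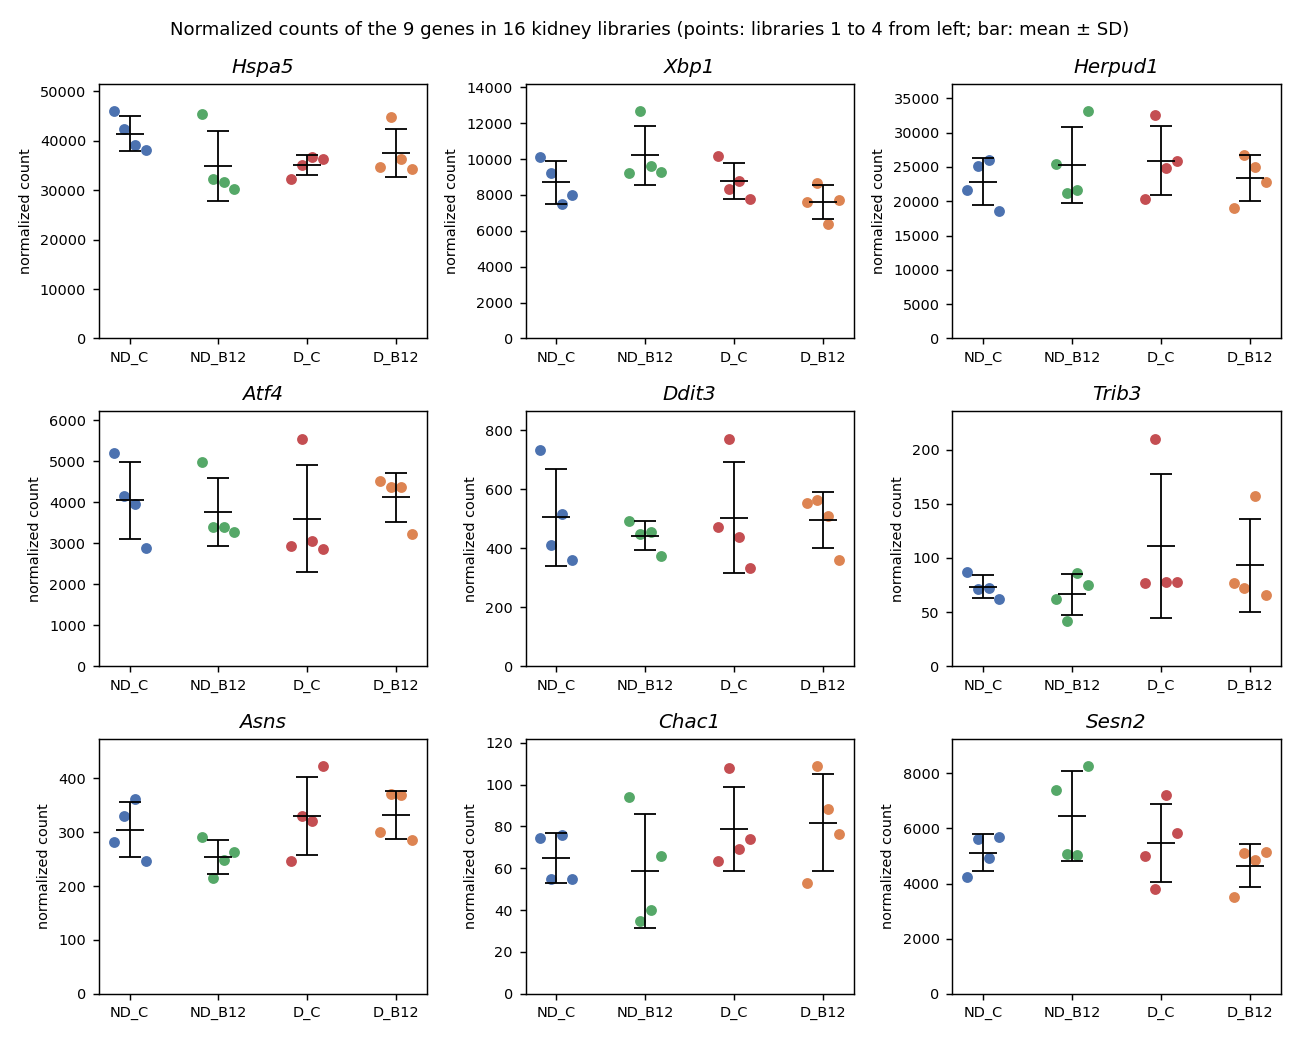
Normalized counts (vertical axes, starting at 0) of the 9 genes in each of the 16 libraries, by labelled group on the horizontal axes. Points are libraries 1 to 4 from left, and bars the mean ± SD of 4. The library labelled D_C 2 is the highest of 16 for Atf4, Ddit3 and Trib3.

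Hspa5 (ENSMUSG00000026864.14, chr2:34661982-34668880, GRCm39, plus strand) encodes BiP, the main Hsp70 chaperone of the ER lumen, which also holds the 3 sensors inactive. Its normalized counts were 46038, 42318, 39066 and 38222 in ND_C, 32243, 35148, 36651 and 36367 in D_C, 45448, 32275, 31711 and 30314 in ND_B12, and 34790, 44790, 36356 and 34191 in D_B12. Every D_C library lay below every ND_C library, while the other pairs of groups overlapped, and the library labelled ND_B12 1 stood apart from the other 3 of its group. That library matched the study's column of non-diabetic controls, and its Hspa5 count lay within the range of ND_C. The D_C and ND_C groups did not overlap for 1 of 9 members, against 9.44% of all genes. In ND_B12 against ND_C and in D_B12 against D_C, 0 of 9 members had groups that did not overlap, against 4.81% and 6.58% of all genes. The log2 fold change of D_C minus ND_C was -0.24 ± 0.12 (SE), with an adjusted p-value of 0.291 by edgeR and an exact permutation p-value of 0.0286, the smallest that 4 against 4 allows. For ND_B12 minus ND_C it was -0.24 ± 0.12, with an adjusted p-value of 0.668 by edgeR, and -0.39 without ND_B12 1. In D_B12 minus ND_B12 the difference was 0.10 ± 0.12 (95% interval -0.15 to 0.35), and in D_B12 minus D_C 0.10 ± 0.12 (-0.15 to 0.35). Leaving out 1 library moved the former between 0.0053 (without D_B12 2) and 0.25 (without ND_B12 1), and the latter between 0.0023 (without D_B12 2) and 0.15 (without D_B12 1).

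Xbp1 (ENSMUSG00000020484.20, chr11:5470606-5483027, GRCm39, plus strand) encodes the transcription factor that IRE1 activates by splicing. Its normalized counts were 10088, 9233, 7486 and 7981 in ND_C, 10175, 8333, 8781 and 7781 in D_C, 9214, 12678, 9613 and 9286 in ND_B12, and 7632, 8678, 6398 and 7717 in D_B12. Every D_B12 library lay below every ND_B12 library, which held for 1 of 9 members and, in either direction, for 11.7% of all genes. Its log2 fold change was -0.43 ± 0.12 (95% confidence interval -0.69 to -0.16), with an unadjusted p-value of 0.00325 and an adjusted p-value of 0.0985 by edgeR, and an exact permutation p-value of 0.0286. Over 24 alternatives its adjusted p-value ran from 0.0284 in DESeq2 to 0.878 once label date entered the model. Leaving out the libraries labelled D_C 1 and ND_B12 4, the change was -0.46 ± 0.13 with an adjusted p-value of 0.0704 by edgeR. In D_C minus ND_C the change was 0.01 ± 0.12. The difference between these 2 effects, the interaction, was -0.44 ± 0.17, with an unadjusted p-value of 0.0228 and an adjusted p-value of 0.227 by edgeR.

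**Figure D2:**
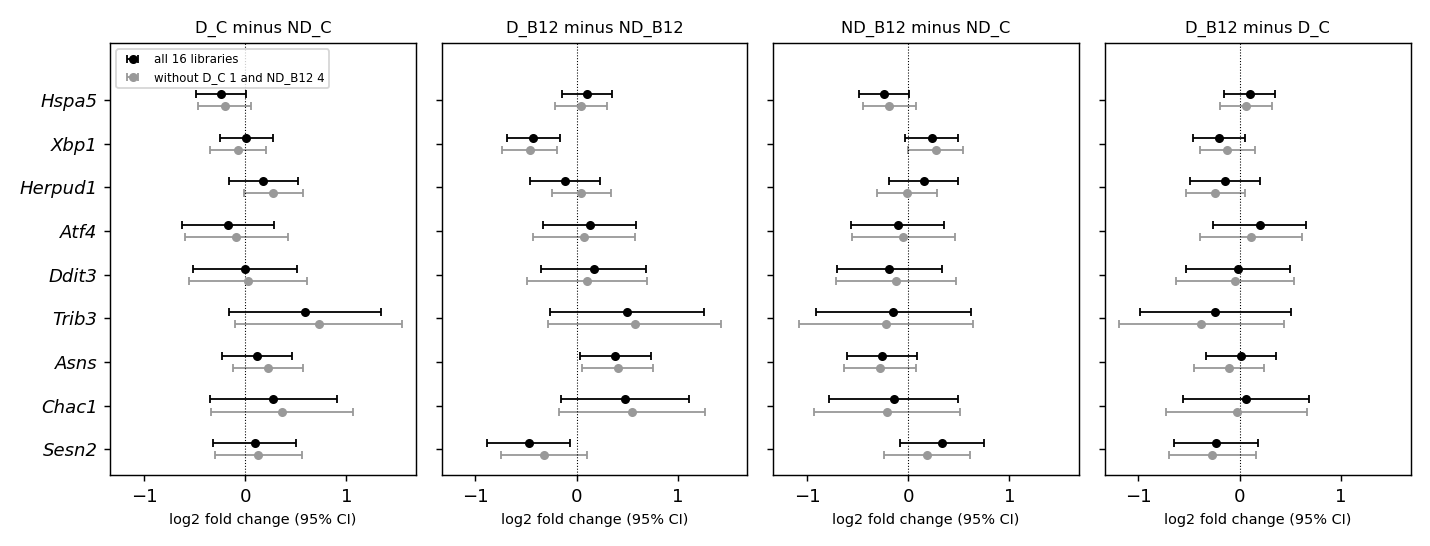
Log2 fold change (horizontal axes) of each of the 9 genes in the 4 comparisons of labelled groups, with 95% confidence intervals from edgeR. Black points use all 16 libraries and grey points leave out the libraries labelled D_C 1 and ND_B12 4. With all libraries, the intervals of Xbp1, Asns and Sesn2 in D_B12 minus ND_B12 exclude 0, and the adjusted p-values of these were 0.0985, 0.248 and 0.227.

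The share of Xbp1 counts assigned to the spliced transcript was low in every kidney. Xbp1-205 took 3.01%, 1.68%, 1.10% and 1.20% of Xbp1 counts in ND_C, 2.98%, 4.44%, 6.02% and 3.41% in D_C, 3.90%, 3.03%, 1.93% and 3.67% in ND_B12, and 3.14%, 2.28%, 1.54% and 3.21% in D_B12. The highest share was in D_C 3 and the lowest in ND_C 3, and ND_C 1 exceeded D_C 1, so D_C and ND_C overlapped. The means were 1.75% ± 0.879 (SD, n = 4) in ND_C, 4.21% ± 1.35 in D_C, 3.13% ± 0.882 in ND_B12, and 2.54% ± 0.793 in D_B12. D_C exceeded ND_C by 2.46 percentage points (exact permutation p = 0.0571). ND_B12 exceeded ND_C by 1.38 points (exact permutation p = 0.0571), D_B12 minus ND_B12 was -0.59 points (exact permutation p = 0.343), and D_B12 minus D_C was -1.67 points (exact permutation p = 0.0857). Leaving out 1 library gave 1.86 (without D_C 3) to 2.89 points in D_C minus ND_C, 1.124 to 1.80 in ND_B12 minus ND_C, -0.99 (without ND_B12 3) to -0.25 (without D_B12 3) in D_B12 minus ND_B12, and -2.08 to -1.07 (without D_C 3) in D_B12 minus D_C. Adjusted over the 72 tests of transcripts with at least 1% of a member's counts, none of these 4 had a p-value below 0.274. The smallest exact permutation p-value that 4 against 4 allows is 0.0286. A test at that value could not pass this adjustment unless many others reached it too. The adjustment therefore does not show that the shares were unchanged. The shares rest on 73 to 595 counts per library, estimated by StringTie, and this transcript was singled out after its annotation was seen. Xbp1-205 is annotated with 1116 bases and Xbp1-201 with 2134, and counts were not scaled by length. A share of counts is therefore not a share of molecules. The annotated ends also differ, at 5475242 and 5475893, so the estimate rests on more than the 26 bases. Other minor transcripts of Xbp1 differed between the same groups, as given below.

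**Figure D3:**
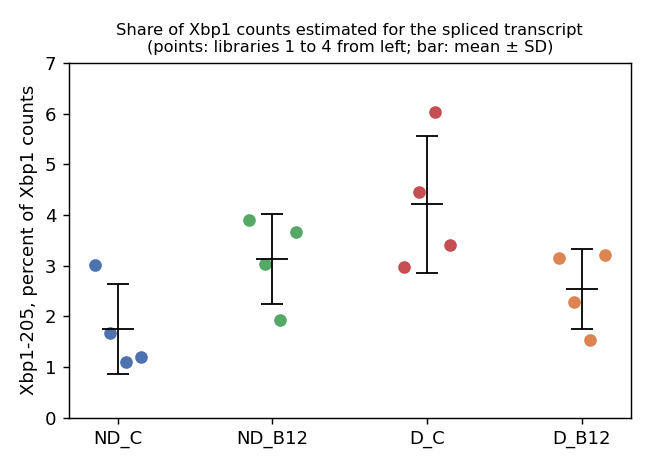
Percent of Xbp1 transcript counts estimated for the spliced transcript Xbp1-205 (vertical axis) in each library, by labelled group. Points are libraries 1 to 4 from left, and bars the mean ± SD of 4. ND_C averages 1.75% and D_C 4.21%, and the ranges of both groups overlap.

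Other transcripts of the members were tested by the same exact permutation of shares. Of 35 transcripts, 12 held at least 5% of their gene's counts, and in 48 tests 2 had an unadjusted p-value below 0.05 and 0 passed adjustment. One of these was Ddit3-202, a retained-intron transcript, which took 19.9% ± 1.81 (SD, n = 4) of Ddit3 counts in ND_C and 13.2% ± 1.83 in D_C, with no overlap (exact permutation p = 0.0286). Atf4-203, a retained-intron transcript, took 46.3% to 64.9% of Atf4 counts over the libraries. Asns-202, which begins downstream of Asns-201, took 85.2% of Asns counts in ND_C 4 and 79% in ND_B12 3, and at most 1.52% in the other 14. These 2 libraries stood apart in that estimate and not in the level of Asns, which was 246 and 249 normalized counts. Down to 1% of a gene's counts, 8 of 72 tests had an unadjusted p-value below 0.05, and the smallest adjusted p-value was 0.257. Among them were minor Xbp1 transcripts. Xbp1-202 took 2.74% of Xbp1 counts in ND_C, 1.53% in D_C and 1.53% in ND_B12, and Xbp1-204 2.30%, 1.14% and 1.36%. For each, ND_C overlapped neither D_C nor ND_B12 (exact permutation p = 0.0286). That smallest possible p-value limits adjustment in both sets, as above.

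Herpud1 (ENSMUSG00000031770.17, chr8:95113022-95123141, GRCm39, plus strand), an ER membrane protein that helps move misfolded proteins to degradation, ran from 18537 normalized counts in the library labelled ND_C 4 to 33143 in ND_B12 4. The group means were 22852 ± 3441 (SD, n = 4) in ND_C, 25911 ± 5060 in D_C, 25314 ± 5555 in ND_B12, and 23408 ± 3330 in D_B12. All pairs of groups overlapped. The log2 fold change was 0.18 ± 0.16 in D_C minus ND_C and -0.12 ± 0.16 in D_B12 minus ND_B12, and the latter was 0.05 without the libraries labelled D_C 1 and ND_B12 4. Without D_C 2 the former was 0.047. Adjusted p-values by edgeR were 0.611 and 0.767.

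Atf4 (ENSMUSG00000042406.9, chr15:80139372-80141745, GRCm39, plus strand) encodes the transcription factor of the integrated stress response, which is regulated mainly in translation, so that its mRNA is an incomplete reading of its activity. Its normalized counts were 5189, 4142, 3962 and 2888 in ND_C, 2932, 5549, 3056 and 2850 in D_C, 4981, 3382, 3397 and 3258 in ND_B12, and 4504, 4366, 4367 and 3218 in D_B12. High and low values occurred within each group, and all pairs of groups overlapped. The library labelled D_C 2 stood far above the other 3 of its group, ND_B12 1 did so in its own, and D_B12 4 lay below the others of D_B12. The log2 fold change of D_C minus ND_C was -0.17 ± 0.22 with an adjusted p-value of 0.742 by edgeR, and it was -0.46 without D_C 2 and -0.035 without ND_C 1.

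Ddit3 (ENSMUSG00000025408.16, chr10:127124268-127132163, GRCm39, plus strand) encodes CHOP, the transcription factor that ATF4 induces and that promotes apoptosis. Its normalized counts were 732, 410, 515 and 361 in ND_C, 471, 772, 439 and 333 in D_C, 492, 447, 454 and 375 in ND_B12, and 555, 562, 509 and 360 in D_B12. The 2 highest libraries, D_C 2 and ND_C 1, came from different genotypes and were also the 2 highest for Atf4. The log2 fold change of D_C minus ND_C was below 0.01 in size, with a 95% interval of -0.51 to 0.51, and its adjusted p-value by edgeR was 1.0. Ddit3 lies opposite Mars1 and Mbd6, and without a stated strand setting reads of such overlapping genes cannot be told apart. It also overlaps Gm20492, Gm66222 and another entry named Ddit3 on the same strand, which a strand setting would not separate. Hspa5, Xbp1, Herpud1, Trib3 and Asns are overlapped by genes on the opposite strand too.

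Trib3 (ENSMUSG00000032715.10, chr2:152179337-152191958, GRCm39, minus strand) encodes a pseudokinase induced by ATF4 and CHOP that restrains ATF4 in turn. Its normalized counts were 87.5, 71.6, 72.5 and 62.4 in ND_C, 77.1, 210, 77.3 and 78.2 in D_C, 62.2, 41.7, 85.8 and 75.4 in ND_B12, and 77.2, 72.6, 157 and 65.6 in D_B12. Only D_C 2 and D_B12 3 exceeded 100 counts. The log2 fold change of D_C minus ND_C was 0.59 ± 0.35, with a 95% interval of -0.16 to 1.34 and an adjusted p-value of 0.399 by edgeR, and without D_C 2 it was 0.07. In D_B12 minus ND_B12 it was 0.50 ± 0.36 with an adjusted p-value of 0.514, and without D_B12 3 it was 0.12. Each mean difference thus rested on 1 library.

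Asns (ENSMUSG00000029752.13, chr6:7671667-7728461, GRCm39, minus strand), the enzyme that makes asparagine and a classical target of ATF4 through the composite element printed above, averaged 305 ± 51.2 normalized counts in ND_C, 330 ± 72.3 in D_C, 254 ± 31.6 in ND_B12 and 332 ± 44.7 in D_B12 (SD, n = 4). In D_B12 minus ND_B12 its log2 fold change was 0.38 ± 0.16, with an unadjusted p-value of 0.0337 and an adjusted p-value of 0.248 by edgeR, and the groups overlapped. Chac1 (ENSMUSG00000027313.4, chr2:119180757-119184866, GRCm39, plus strand), which degrades glutathione and has the same element, averaged 64.99 ± 11.9 in ND_C, 78.7 ± 20.03 in D_C, 58.5 ± 27.2 in ND_B12, and 81.7 ± 23.2 in D_B12. Its widest change was 0.48 ± 0.30 in D_B12 minus ND_B12, with an adjusted p-value of 0.438 by edgeR, and leaving out 1 library moved it between 0.29 (without ND_B12 2) and 0.80 (without ND_B12 1).

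Sesn2 (ENSMUSG00000028893.9, chr4:132219335-132237815, GRCm39, minus strand) encodes sestrin 2, a stress-induced inhibitor of mTORC1 and a leucine sensor. Its normalized counts were 4228, 5633, 4941 and 5697 in ND_C, 5001, 3818, 7216 and 5841 in D_C, 7386, 5082, 5036 and 8261 in ND_B12, and 3514, 5116, 4836 and 5137 in D_B12. The 2 highest values were in ND_B12, and D_C 2, highest for Atf4 and Ddit3, was the second lowest. In D_B12 minus ND_B12 the log2 fold change was -0.47 ± 0.19, with an unadjusted p-value of 0.0270 and an adjusted p-value of 0.227 by edgeR. Without the libraries labelled D_C 1 and ND_B12 4 it was -0.32 ± 0.20, with an adjusted p-value of 0.427. Sesn2 overlaps Gm12981 on the same strand, so reads there could be counted for either.

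Within the 9 genes, Atf4 and Ddit3 varied together from kidney to kidney, while no relation among Hspa5, Xbp1 and Herpud1 passed adjustment. Among 36 pairs over 16 libraries, Atf4 with Ddit3 had a Pearson r of 0.84 and a Spearman rho of 0.83 of log2 CPM, with permutation p-values of 5.0e-05 and 0.00018 and adjusted p-values of 0.0018 and 0.00648. Without ND_C 1 and D_C 2, the libraries farthest from the Atf4 median, r was 0.73, and with group means removed it was 0.88. Xbp1 and Asns had r = -0.69 and rho = -0.69 (permutation p = 0.00276 and 0.00431), with adjusted p-values of 0.0497 and 0.0517. That r was -0.50 without ND_B12 2 and D_B12 3, and -0.56 with group means removed, where its adjusted permutation p-value was 0.0971. Herpud1 and Chac1 had r = 0.58 and rho = 0.64 (adjusted permutation p = 0.132 and 0.0721), and r = 0.71 with group means removed (adjusted permutation p = 0.0346). With group means removed, the permutations shuffled values over all 16 libraries and did not allow for the means taken out. These p-values therefore tend to be too small. Hspa5 had r = -0.12 and rho = -0.19 with Xbp1 (permutation p = 0.672 and 0.484), and r = 0.01 and rho = 0.12 with Herpud1 (permutation p = 0.979 and 0.663). Label date differs along the libraries with the groups, and its part in these relations was not tested.

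**Figure D4:**
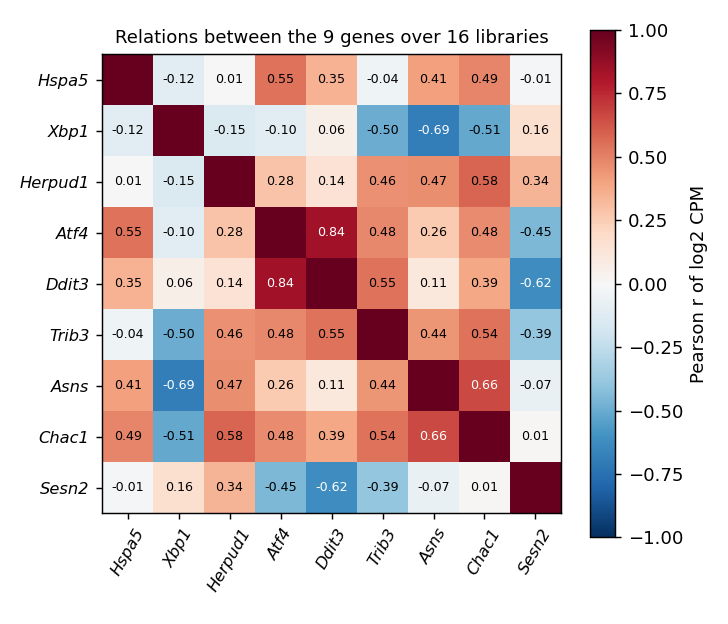
Pearson r of log2 CPM (colour scale from -1 to 1) for each pair of the 9 genes over 16 libraries. Atf4 with Ddit3 has the highest r, 0.84, and Xbp1 with Asns the lowest, -0.69.

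Among 15361 genes with a mean normalized count of at least 100, those most like Hspa5 over the 16 libraries were Med7, a Mediator subunit (r = 0.92, rho = 0.89), Creld2, an ER protein induced by stress (r = 0.87, rho = 0.81), and Adgra3, an adhesion receptor (r = 0.86, rho = 0.78). Those most like Atf4 were Spata2, a partner of the deubiquitinase CYLD (r = 0.89, rho = 0.88), Tent4b, a poly(A) polymerase (r = 0.89, rho = 0.86), and Cflar, the caspase-8 inhibitor FLIP (r = 0.88, rho = 0.83). These are the highest of many correlations and are given as a description.

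Around the members, the chaperone Calr was lower in the kidneys labelled D_C than in those labelled ND_C. Slc7a1 and Pck2, which lie downstream of ATF4, were higher there. Each of these calls was lost in some of the fits that left out 1 library, as given below. Of 96 genes in 7 pathway lists, 95 were tested (Fgf21 had too few counts), and in D_C minus ND_C edgeR called 2 higher and 1 lower, where 0.937% and 0.728% of all genes were called. Calr, the lectin chaperone calreticulin, fell by 0.32 on the log2 scale (SE 0.08, adjusted p = 0.0469 by edgeR), from 58230 ± 1330 normalized counts in ND_C to 46600 ± 3752 in D_C (SD, n = 4). Slc7a1, the cationic amino acid transporter, rose by 0.62 ± 0.13 (adjusted p = 0.0377 by edgeR), from 857 ± 141 to 1317 ± 160 normalized counts. Pck2, mitochondrial phosphoenolpyruvate carboxykinase, rose by 0.36 ± 0.09 (adjusted p = 0.0474 by edgeR), from 823 ± 40.6 to 1058 ± 88.2. The calls for Calr and Pck2 were lost in 12 of the 16 fits that left out 1 library, all but those without ND_B12 1, ND_B12 4, D_C 1 or D_B12 1, and that for Slc7a1 in 7 of 16 (without ND_C 2, 3 or 4, ND_B12 2, or D_C 2, 3 or 4). The changes kept their direction in all 16, with adjusted p-values of at most 0.131, 0.144 and 0.119.

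**Figure D5:**
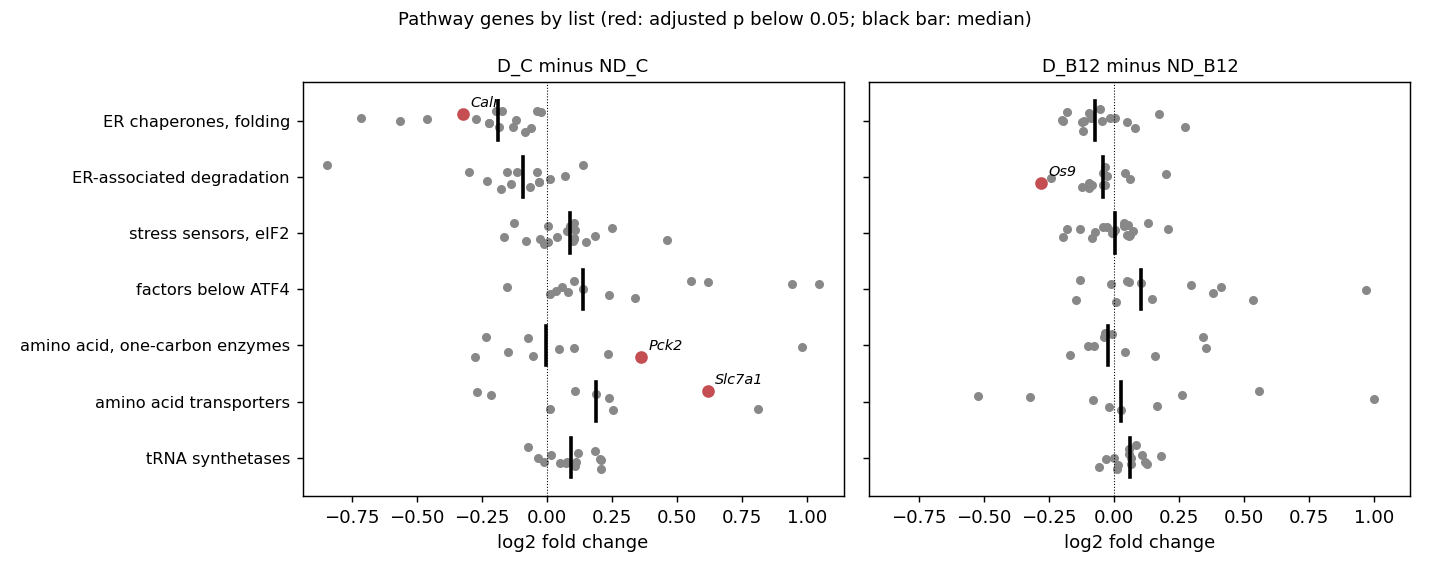
Log2 fold changes (horizontal axes) of the genes of 7 pathway lists in diabetic minus non-diabetic kidneys, untreated (left) and given B12 (right). Each point is a gene, red where the adjusted p-value by edgeR is below 0.05, and black bars are list medians. The 16 ER chaperones and folding enzymes all lie below 0 on the left, with a median of -0.19, and 1 of them, Calr, is called. In ND_B12 minus ND_C, which is not drawn, 15 of the 16 were negative too.

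By list, 16 of 16 ER chaperones and folding enzymes had a negative log2 fold change in D_C minus ND_C, where 49.3% of all genes had a positive one. Their median was -0.19 beside -0.003 for all genes, and 9 had an unadjusted p-value below 0.05 and were lower, beside 9.28% of all genes. The same list was also lower without diabetes: in ND_B12 minus ND_C 15 of 16 were negative, with a median of -0.096 beside 0.002 for all genes. Both comparisons share the ND_C libraries. In D_B12 minus D_C 9 of the 16 were higher and 7 lower. ER-associated degradation had a median of -0.09, with 4 of 14 lower and 0 higher at that threshold. The list of stress sensors, eIF2 and its kinases and phosphatases had a median of 0.09, with 2 of 19 higher and 1 lower. The factors downstream of ATF4 had a median of 0.14, with 4 of 13 higher and 0 lower, and 9.31% of all genes were higher. The amino acid and one-carbon enzymes had a median of -0.01, with 2 of 10 higher, the transporters a median of 0.19, with 2 of 9 higher and 1 lower, and the tRNA synthetases a median of 0.09, with 3 of 14 higher. The lists were chosen with earlier results of these data known, so these counts beside all genes are a description.

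Markers of B cells and plasma cells, which secrete much protein and express many ER chaperones, were lower in the diabetic groups than in the non-diabetic groups of the same treatment, with no overlap. The summed level of 9 of 9 markers, led by Igkc, was 66.2 to 268 CPM in ND_C, 13.4 to 47.1 in D_C, 35.9 to 149 in ND_B12, and 13.7 to 20.2 in D_B12, and none was at 0. Their part in the values of the chaperone genes was not tested. Summed macrophage markers (6 of 6 detected, led by Csf1r) ran from 74.0 to 88.4 CPM in ND_C, from 60.5 to 82.4 in D_C, from 52.9 to 81.1 in ND_B12 and from 53.9 to 58 in D_B12, so that D_B12 lay below ND_C and D_C without overlap. Over all libraries adipocyte markers (6 of 6, led by Fabp4) ran from 26.9 to 239 CPM. Skeletal muscle markers reached at most 0.476 CPM, and 2 of 5 adrenal markers were at 0 in every library (Cyp11b1 and Th), while Star averaged 4.82 CPM. Of 5 pancreas markers 4 were at 0 (Ins1, Ins2, Prss2 and Amy2a5), and the fifth, Cela1, averaged 32.9 CPM, with sums for the list of 23.3 to 27.6 in ND_C, 23.0 to 41.9 in D_C, 22.1 to 49.4 in ND_B12 and 40.4 to 43.8 in D_B12. The part of these cells in the results was not tested.

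Without the libraries labelled D_C 1 and ND_B12 4, 19 of 95 list genes were called in D_C minus ND_C, 11 higher and 8 lower, where 8.57% of all genes were called. Lower were 6 of 16 chaperone genes and 2 of 14 degradation genes. Higher were 3 of 10 amino acid and one-carbon enzymes, 2 of 9 transporters and 3 of 14 tRNA synthetases. The degradation list, the list of stress sensors and eIF2, and the factors downstream of ATF4 had 1 higher gene each, and the chaperone list 0. Calr then stood at -0.38 (adjusted p = 0.0029 by edgeR), Slc7a1 at 0.68 (0.0123) and Pck2 at 0.37 (0.0135).

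In B12-treated kidneys the same lists gave 1 call in D_B12 minus ND_B12, where 0.563% of all genes were called lower. In the same groups the share of mitochondrial counts was 12.4% to 13.1% in D_B12 and 10.6% to 11.6% in ND_B12, and summed tubule and glomerulus markers were 12529 to 12820 CPM in D_B12 and 14115 to 15091 in ND_B12, neither overlapping, and their part in the change of Os9 and in the values of Xbp1 and the other genes there was not tested. Os9, a lectin that hands glycoproteins to degradation, fell by 0.28 on the log2 scale (SE 0.06, adjusted p = 0.0418 by edgeR), from 11760 ± 115 normalized counts in ND_B12 to 9714 ± 274 in D_B12 (SD, n = 4), with no overlap. The call was lost in 12 of 16 fits that left out 1 library, all but those without ND_C 4, D_C 1, D_C 2 or D_C 3, with adjusted p-values of at most 0.144. Next by p-value were the transporter Slc1a4 (-0.52 ± 0.16, adjusted p = 0.117 by edgeR) and the stress cytokine Gdf15 (0.97 ± 0.30, adjusted p = 0.118). The chaperone list had a median of -0.07, with 3 of 16 lower and 0 higher at an unadjusted p-value below 0.05, beside 9.2% of all genes lower. With the libraries labelled D_C 1 and ND_B12 4 left out, 4 of 95 list genes were called, all lower, and 2 of them were chaperone genes, where 2.8% of all genes were called.

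Averaged over both treatments, edgeR called 6 list genes for diabetes, beside 3.02% of all genes. Gdf15 rose by 1.01 ± 0.21 (adjusted p = 0.0234 by edgeR), with means of 331 ± 83.6 normalized counts in ND_C, 683 ± 349 in D_C, 318 ± 49.9 in ND_B12 and 624 ± 211 in D_B12 (SD, n = 4). Slc7a1 rose by 0.39 ± 0.09, while Calr (-0.22 ± 0.05), Os9 (-0.17 ± 0.04) and the disulfide isomerases Pdia3 (-0.21 ± 0.05) and Pdia6 (-0.24 ± 0.06), named after their values were seen, fell, with adjusted p-values by edgeR of 0.0358, 0.0375, 0.0374, 0.0488 and 0.0493. Leaving out 1 library ended the call of Gdf15 in 4 of 16 fits (without ND_C 2, ND_B12 2, ND_B12 3 or D_B12 3) and those of the other 5 in 10 to 13. The calls of Calr, Pdia3 and Pdia6 held only without ND_B12 4, D_C 1 or D_B12 2, that of Os9 without ND_C 4, ND_B12 4, D_C 1 or D_C 3, and that of Slc7a1 without ND_C 1, ND_B12 4, D_C 1, D_C 3, D_B12 2 or D_B12 4. With label date in the model, none of the list genes was called in these diabetes comparisons. Without the libraries labelled D_C 1 and ND_B12 4, 25 of 95 list genes were called, 11 higher and 14 lower, beside 10.2% of all genes.

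For B12 edgeR gave 0 calls in the lists under the labels. At an unadjusted p-value below 0.05 it had 7 of 95 list genes (7.37%) in ND_B12 minus ND_C, beside 7.62% of all genes. In D_B12 minus D_C it had 6 of 95 (6.32%), beside 13.6% of all genes. DESeq2 called 0 and 1 list genes in these comparisons, beside 0.0236% and 2.68% of all genes. In diabetic kidneys, D_B12 minus D_C, the genes of smallest p-value were the leucine transporter subunit Slc7a5 (-0.95 ± 0.26, adjusted p = 0.135 by edgeR), Slc7a1 (-0.40 ± 0.13, adjusted p = 0.198) and Phgdh, the first enzyme of serine synthesis (-0.71 ± 0.26, adjusted p = 0.240). Slc7a5 averaged 429 ± 150 normalized counts in D_C and 221 ± 67.0 in D_B12 (SD, n = 4), and was called by DESeq2 with all 16 libraries (adjusted p = 0.0135), where 2.68% of all genes were, and by edgeR without the libraries labelled D_C 1 and ND_B12 4 (-1.14 ± 0.23, adjusted p = 0.0383), where 0.87% were. In non-diabetic kidneys, ND_B12 minus ND_C, they were Psat1, the next enzyme of serine synthesis (-0.33 ± 0.12, adjusted p = 0.588 by edgeR), the ER co-chaperone Sdf2l1 (-0.46 ± 0.18, adjusted p = 0.610) and the lipoprotein receptor Vldlr (0.11 ± 0.05, adjusted p = 0.633). The comparisons with D_C and with ND_C share those libraries, so their values are not independent of each other.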

How the data were processed

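The authors aligned paired 50 bp reads with STAR to GRCm39 and deposited, from StringTie, 1 table of estimated counts per gene and 1 of estimated counts per transcript. The estimated counts deposited by the authors were whole numbers, so rounding changed nothing. By the methods STAR took strand from the motifs of introns and also wrote its own gene counts, while the strand setting of StringTie, whose counts were deposited, is not given in the sources used here. Columns were assigned to libraries through the number closing each description, with 0 columns unassigned.

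The members and gene lists were chosen with earlier results of these data known. A sum of 100 counts or more, reached by 25408 of 57186 genes, was required for testing in R 4.3.3 with edgeR 4.0.16 (glmQLFit and glmQLFTest, TMM normalization, a model of the 4 labelled group means over 16 libraries, leaving 12 residual degrees of freedom, two-sided, Benjamini-Hochberg adjustment over all genes at 0.05). Counts were normalized with size factors from the median of ratios, and log2 CPM carries a prior count of 2. A member's symbol was read from its most abundant row. Correlations and exact permutation tests were made in Python 3.11.15 with scipy 1.17.1 and numpy 2.4.6, and plots with matplotlib 3.10.9. The edgeR step was tested on simulated data drawn to resemble the deposited counts. Named genes besides the members are, for each comparison of a pair of groups, the list genes with an adjusted p-value below 0.05 and the 3 of smallest unadjusted p-value, plus the 3 genes most correlated with Hspa5 and with Atf4 among those with a mean normalized count of at least 100; others are marked where they appear. Alternatives were DESeq2 1.42.0, upper-quartile normalization, no filter beyond 1 count, filterByExpr, label date added to the model, a block for replicate number, the compared groups alone, each library left out, the libraries labelled D_C 1 and ND_B12 4 left out (chosen after seeing the data), a prior count of 0.5, group means removed, transcripts down to 1% of a gene's counts, and 1 mismatch in the ER stress response element. Promoter windows came from RefSeq on GRCm38.p6, and gene and transcript positions from GENCODE vM39 on GRCm39. The group means of a supplementary table were used only to check the labels, by finding for each column the 4 libraries whose means over 180 genes lay closest among 1820 sets. Histology, blood, urine, protein and cell culture measures are not analysed here.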

Additional observations from a re-analysis of the deposited data

Results flagged for a closer look

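A library was taken as standing apart where its gap to the nearest of the other 3 in its group, as a share of the group's range, passed the 95% critical value of Dixon's test, which chance gives in about 1 in 20 groups. Of 40 tests of the 9 genes and the spliced Xbp1 share, 7 stood apart. For Atf4 they were ND_B12 1 at 4981 normalized counts, D_C 2 at 5549 and D_B12 4 at 3218. For Trib3 they were D_C 2 at 210 and D_B12 3 at 157. Hspa5 stood apart in ND_B12 1, at 45448, and Xbp1 in ND_B12 2, at 12678. Of these libraries, only ND_B12 2 matched its labelled group in the study's supplementary means. The library labelled D_C 2 was also the highest of 16 for Ddit3 and the second highest for Herpud1 and Chac1. Its total was 85751266 counts and its share of mitochondrial counts 11.8%, within the ranges of the other libraries.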

How the results depend on the processing

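The call of 0 of 9 members held in each comparison under each setting, and without any 1 library (0 to 0), except for 1 member, Xbp1, called by DESeq2 in D_B12 minus ND_B12. The number of relations below 0.05 was 2 by Pearson r, also with a prior count of 0.5 and with group means removed, where Xbp1 with Asns was lost and Herpud1 with Chac1 gained, and 1 by Spearman rho. The permutation p-values with group means removed tend to be too small, as given above, so the gain is not secure. The number of transcripts was 0 in both sets, which the smallest p-value that 4 against 4 allows, 0.0286, made hard to exceed. That count therefore does not show that shares were unchanged. Allowing 1 mismatch raised the members with an ER stress response element from 1 to 3. Depth limits Trib3 and Chac1 most, whose lowest raw counts were 42 and 32. The cause of the shifts below was not tested.

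Counts of called genes moved more. In D_C minus ND_C, 423 genes became 63 without the filter, 2 with label date, 242 with these groups alone, 2127 without the libraries labelled D_C 1 and ND_B12 4 and 1603 in DESeq2, and their 3 list genes became 0, 0, 1, 19 and 13. In D_B12 minus ND_B12, 209 genes became 18 with upper-quartile scaling, 35 without the filter, 29 with label date, 695 without those 2 libraries and 1146 in DESeq2, and their 1 list gene became 0, 0, 0, 4 and 4. For the average effect of diabetes, 767 became 427, 0, 2531 and 1832 without the filter, with label date, without those 2 libraries and in DESeq2, with 1, 0, 25 and 17 list genes in place of 6, and upper-quartile scaling left 3 list genes. Comparisons with 0 genes reached, in DESeq2, 6 (ND_B12 minus ND_C), 681 (D_B12 minus D_C, 1 list gene), 923 (interaction, 2 list genes) and 6 (average B12). D_B12 minus D_C reached 204 with label date, 1 with the groups alone and 216 without those 2 libraries, with 1 list gene in the last, and the interaction 753 with label date and 87 without those 2 libraries.

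The labels state no pairing by replicate number. Over 24 same-numbered pairs the correlation of deviations ran from -0.183 to 0.168, with a median of -0.00649, beside -0.00231 for pairs of different numbers. Same-numbered libraries thus did not deviate together in general, which does not show that no pairing exists. The model with a replicate block gave 269 genes and 1 list gene in D_C minus ND_C, 25 and 0 in D_B12 minus ND_B12, 147 genes in the interaction, and 478 and 3 for the average effect of diabetes.

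Leaving out 1 library gave 0 to 1552 genes and 0 to 13 list genes in D_C minus ND_C, 0 to 441 and 0 to 2 in D_B12 minus ND_B12, 0 to 2 genes in ND_B12 minus ND_C, 0 to 69 in D_B12 minus D_C, 0 to 266 genes and 0 to 2 list genes in the interaction, and 235 to 1700 and 0 to 16 for the average effect of diabetes.

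Log2 fold changes of members reversed mostly with label date. Under it the values were, for the average effect of diabetes, 0.018 (Hspa5), 0.028 (Xbp1), -0.025 (Herpud1) and 0.66 (Atf4). In D_C minus ND_C they were 0.29 (Atf4), 0.58 (Ddit3), -0.019 (Asns) and -0.33 (Sesn2), in ND_B12 minus ND_C 0.079 (Atf4) and 0.056 (Ddit3), in D_B12 minus D_C 0.010 (Xbp1), 0.78 (Ddit3), 0.050 (Trib3) and -0.14 (Asns), and in the interaction 0.12 (Trib3). Without the libraries labelled D_C 1 and ND_B12 4 they were -0.070 (Xbp1) and 0.028 (Ddit3) in D_C minus ND_C, 0.047 (Herpud1) in D_B12 minus ND_B12, -0.00997 (Herpud1) in ND_B12 minus ND_C, and -0.10 (Asns) and -0.027 (Chac1) in D_B12 minus D_C. Upper-quartile scaling gave -0.00816 for Xbp1 in D_C minus ND_C and 0.00191 for Ddit3 in D_B12 minus D_C, and no filter 0.00396 for Ddit3 in D_C minus ND_C. Of the log2 fold changes of the members and the named genes, 494 values under other settings kept direction and side of the threshold, 32 lost a call and 6 gained one.

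Without 1 library, reversals gave these ranges. In D_C minus ND_C they were -0.079 to 0.085 (Xbp1), -0.29 to 0.23 (Ddit3), -0.035 to 0.22 (Asns) and -0.074 to 0.23 (Sesn2), and in D_B12 minus ND_B12 -0.19 to 0.044 (Herpud1). In ND_B12 minus ND_C they were -0.0071 to 0.23 (Herpud1), -0.27 to 0.032 (Atf4), -0.31 to 0.043 (Ddit3), -0.29 to 0.023 (Trib3) and -0.46 to 0.043 (Chac1). In D_B12 minus D_C they were -0.16 to 0.27 (Ddit3), -0.62 to 0.28 (Trib3), -0.090 to 0.17 (Asns) and -0.11 to 0.26 (Chac1), in the interaction -0.049 to 0.46 (Ddit3) and -0.47 to 0.43 (Trib3), and for the average effect of diabetes -0.12 to 0.0066 (Hspa5), -0.028 to 0.11 (Herpud1), -0.16 to 0.063 (Atf4) and -0.053 to 0.20 (Ddit3).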
